A study of Homo sapiens with 3 samples.

Results

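The mitochondrial ribosomal protein genes were examined in prostate cancer cells by Drop-seq, a droplet method that counts captured mRNA molecules per cell. Members were all genes of the 3 count tables whose symbol begins with MRPL (large subunit) or MRPS (small subunit) and then holds only a number and, where present, A or B. The rule found 77 genes of 33423 in the series, 49 of the large and 28 of the small subunit, and every member had UMIs (unique molecular identifiers, 1 for each captured mRNA molecule) in every library. VCaP parental cells were given the vehicle, 0.1% DMSO, for 48 h. VCaP–ENZ48 cells were given 10 µM of enzalutamide, a drug used against prostate cancer, for 48 h. LNCaP–ENZ168 cells, of another prostate cancer line, were given 10 µM enzalutamide for 168 h. LNCaP cells were grown in RPMI 1640 and VCaP cells in DMEM, both with fetal bovine serum, and no untreated LNCaP library was analysed here. Line, medium and exposure time therefore cannot be told apart in any comparison with LNCaP–ENZ168. Against VCaP parental, drug and vehicle differed as well and cannot be told apart from these.

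Each group was 1 library, so the comparisons carry no test, and cells did not stand in for replicates. The intervals given are 95% intervals and cover counting error only. The files held 1000 barcodes each, and the 944 to 997 kept cells per library carried 6313283 UMIs (LNCaP–ENZ168), 14301287 UMIs (VCaP–ENZ48) and 19515202 UMIs (VCaP parental). Of the barcodes, 860 in VCaP parental, 869 in VCaP–ENZ48 and 212 in LNCaP–ENZ168 ended in an undetermined base. ERG, which VCaP cells express from a gene fusion, was at 105 and 57.1 counts per 1000000 UMIs (CPM) in the VCaP libraries and had no UMI in LNCaP–ENZ168, where 3 counts, the limit that a count of 0 allows, would be 0.475 CPM. Of 6 markers of blood, stromal and endothelial cells, none passed 1.58 CPM in any library, and CD3E and COL1A2 had no row in the files.

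The mitochondrial ribosome translates the few mRNAs that mitochondrial DNA encodes, all for subunits of the respiratory chain and the ATP synthase. Its ribosomal RNAs come from the mitochondrial genome, whereas all of its proteins are encoded in the nucleus, made in the cytosol and imported. The small subunit reads the mRNA, the large subunit forms the peptide bonds, and many of the proteins have bacterial counterparts while others occur only in mitochondrial ribosomes. The genes are scattered over the genome: members lay on 21 chromosomes, with at most 8 on any of them.

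What members shared in sequence was sought in their start regions. RefSeq windows from 250 bases before to 50 bases after the start (GRCh38.p14) were matched for 68 of the 77 members and searched on both strands. The letters AAGATGGCG, the core of the YY1 motif, stood in 13 of these 68 windows (19.1%), against 1.76% of all 34961 windows and 4.83% of the 6580 windows of other genes whose mean level reached 10 CPM in these libraries. The ETS core CCGGAAG stood in 28 windows (41.2%), against 10.3% of all windows and 22.9% of those of the expressed genes. The SP1 letters GGGCGG were in 42 windows (61.8%), against 45.0% of all and 71.0% of the expressed, and the NRF1 letters GCGCATGCG in 2 (2.94%), against 1.92% and 4.73%. None of these 4 sets of letters was present in 8 of the matched members. The YY1 letters were in 8 of 42 large and 5 of 26 small subunit windows, and in 10 members they read in the gene's own direction from the start onward. Those of 7 members named by the rule for single genes are shown on the strand of the match, with the YY1 letters in capitals, to let the place and surroundings of this shared element be compared.
MRPS24, chr7:43869482-43869506, minus strand: cttggcccAAGATGGCGgcctccgt
MRPS18A, chr6:43687766-43687790, minus strand: ggtttttgAAGATGGCGgccctcaa
MRPS18B, chr6:30617855-30617879, plus strand: cgtacgtcAAGATGGCGgcgtctgt
MRPS30, chr5:44808952-44808976, plus strand: cgcgggcaAAGATGGCGgcggccag
MRPL38, chr17:75904862-75904886, minus strand: ccggagggAAGATGGCGgcgccctg
MRPL42, chr12:93467514-93467538, plus strand: attgaaacAAGATGGCGggttcgtg
MRPL36, chr5:1799857-1799881, plus strand: caggaaggAAGATGGCGgcgggggg
Counted from the RefSeq start, the letters in the first 6 of these began between base 7 (MRPL38) and base 24 (MRPS18B) of the transcript. In MRPL36 they lay upstream, 36 bases before that start, and faced the other way. The Gencode gene body of MRPL36 begins further upstream, at chr5:1801366, and holds the match. That Gencode start was used for its head-to-head partner below. A match of letters describes the sequence and was not tested as a binding site.

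The members together took a smaller share of the captured mRNA in VCaP–ENZ48 than in VCaP parental. Summed over all 77 genes, they held 10539.9 CPM (10494 to 10586) in VCaP parental, 7530 CPM (7485 to 7575) in VCaP–ENZ48 and 9365 CPM (9289 to 9440) in LNCaP–ENZ168, or 1.05%, 0.753% and 0.936% of all UMIs. A cell carried a median of 190, 86 and 51 member UMIs in the same order, where the median of all UMIs per cell was 17817, 11224 and 5389. As a share of the cell's UMIs the median was 10529, 7208 and 9166 CPM, lowest in VCaP–ENZ48. All kept cells had at least 1 member UMI. Because cytosolic ribosomal protein genes alone took 20.3%, 24.7% and 10.2% of the UMIs and mitochondrially encoded genes 6.24%, 7.49% and 8.94%, the sums were also set over the remaining UMIs. They were then 14348, 11101 and 11578 CPM, so that VCaP parental stayed highest and the gap between LNCaP–ENZ168 and VCaP–ENZ48 nearly closed.

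The difference between the VCaP libraries was not even over the ribosome, and large subunit genes were lower in VCaP–ENZ48 by more than small subunit genes. Large subunit genes summed to 7176, 4840 and 5748 CPM in VCaP parental, VCaP–ENZ48 and LNCaP–ENZ168, and small subunit genes to 3364, 2690 and 3616 CPM. The large subunit thus held 68.1% of member UMIs in VCaP parental (Clopper-Pearson interval 67.9% to 68.3%), 64.3% in VCaP–ENZ48 (64.0% to 64.6%) and 61.4% in LNCaP–ENZ168 (61.0% to 61.8%), or 2.13, 1.80 and 1.59 large subunit UMIs for each of the small. The intervals did not overlap. The order was the same when MRPS30 and MRPS18A, whose proteins sit in the large subunit of the human structure, were moved there and MRPS36 was left out (70.0%, 66.4% and 63.0%), and when the most abundant gene of each subunit was left out (69.3%, 65.5% and 62.0%). Within the VCaP libraries the share was also lower in the cells with the fewest cell cycle transcripts. Split into 3 equal groups of cells by the share of UMIs in S and G2M phase genes, the lowest and highest groups had 66.7% (66.3% to 67.1%) and 69.1% (68.8% to 69.5%) in VCaP parental and 63.7% (63.2% to 64.2%) and 64.9% (64.4% to 65.4%) in VCaP–ENZ48. In LNCaP–ENZ168 they had 61.0% (60.3% to 61.7%) and 61.6% (60.9% to 62.2%), with overlapping intervals. These cell cycle genes took 1.5%, 0.280% and 0.627% of UMIs in the 3 libraries. With every library restricted to cells at or under the VCaP–ENZ48 median of that share, 12 VCaP parental cells had a large subunit share of 64.9% (62.8% to 67.0%), 474 VCaP–ENZ48 cells 64.0% (63.6% to 64.4%) and 46 LNCaP–ENZ168 cells 60.7% (58.6% to 62.7%), so that the intervals of the VCaP libraries overlapped. The part of the cell cycle in the difference between libraries was not tested further.

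**Figure D1:**
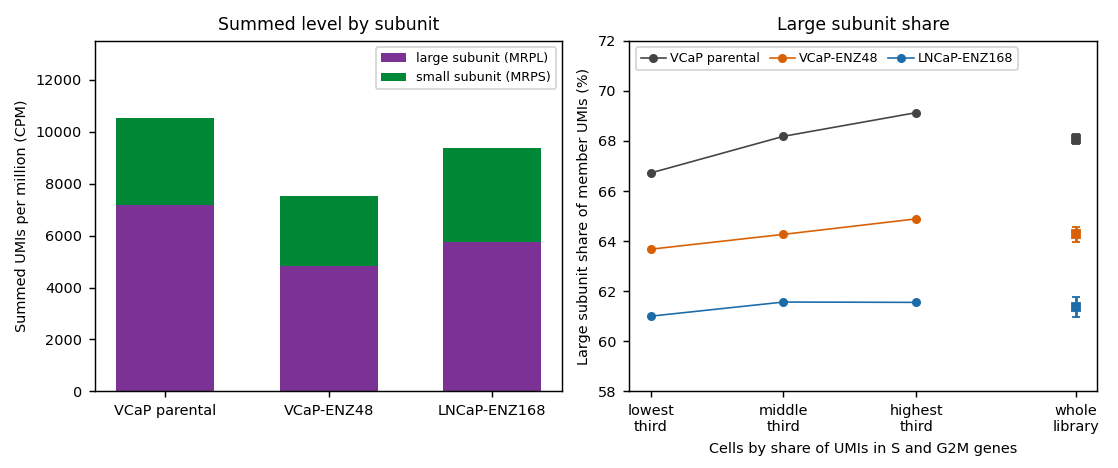
Left, summed CPM of large (purple) and small (green) subunit genes in the 3 libraries. Right, percent of member UMIs in large subunit genes, in 3 equal groups of cells ordered by their share of UMIs in S and G2M phase genes (circles) and in the whole library (squares, bars are 95% Clopper-Pearson intervals); the vertical axis begins at 58%. The whole-library shares were 68.1%, 64.3% and 61.4%, and no group of cells of one library reached the range of another.

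To compare single genes, the log2 ratio of CPM + 1 between libraries was taken minus its median over all genes whose mean over both libraries reached 10 CPM. This relative log2 ratio is 0 for a gene that kept pace with the median gene. The median that was subtracted was −0.07 between VCaP–ENZ48 and VCaP parental, but 0.65 and 0.57 between LNCaP–ENZ168 and those libraries, so that most genes were higher on the CPM scale in LNCaP–ENZ168. Of the 77 members 76 passed the minimum. MRPL53 did not, with 4.05, 7.83 and 1.90 CPM in VCaP parental, VCaP–ENZ48 and LNCaP–ENZ168, and has no relative ratio in what follows. With 1 library a group, a gene was counted as higher or lower when its relative ratio passed 1.5-fold.

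**Figure D2:**
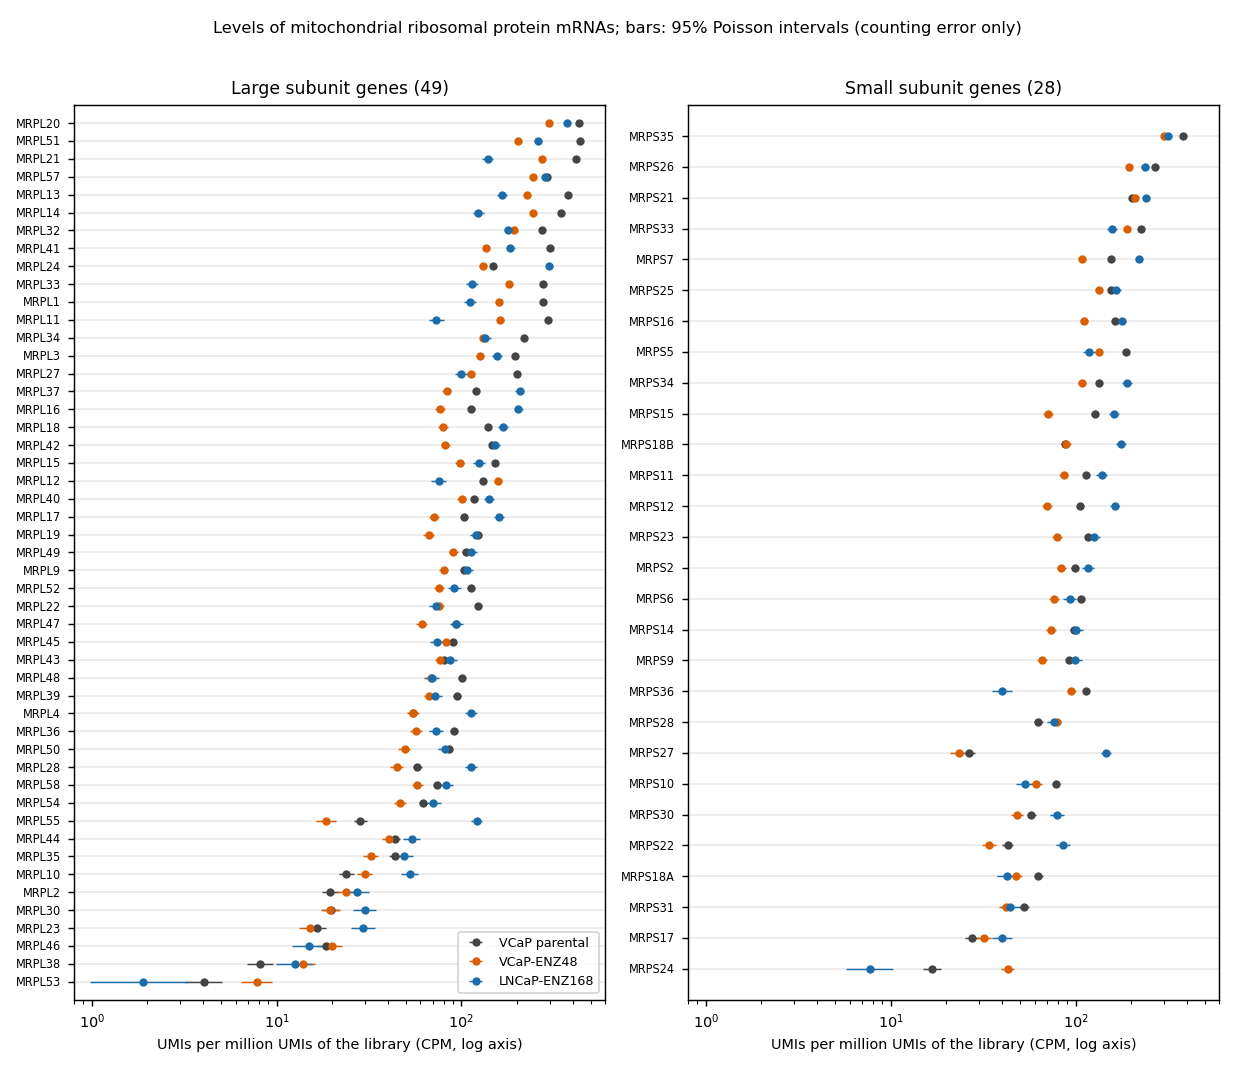
Level of each member in counts per 1000000 UMIs (CPM, log axis) in VCaP parental (grey), VCaP–ENZ48 (orange) and LNCaP–ENZ168 (blue), with 95% Poisson intervals, for the 49 large (left) and 28 small (right) subunit genes ordered by mean level. The orange point is the leftmost of the 3 in 50 genes, and MRPL55, MRPS27, MRPS24 and MRPL11 have the widest gaps between points among genes above 10 CPM on average.

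Across members, VCaP–ENZ48 was most often the library with the lowest level. On the CPM scale, with MRPL53 included, 50 of 77 members (64.9%) were lowest there, against 42.9% of the 8504 genes that averaged 10 CPM or more. In LNCaP–ENZ168 19 were lowest (24.7%, against 22.5% of those genes), near the background. In VCaP parental 8 were lowest (10.4%, against 34.6%). The most frequent order was LNCaP–ENZ168 above VCaP parental above VCaP–ENZ48, with 33 members (42.9%, against 32.2% of those genes). VCaP parental above LNCaP–ENZ168 above VCaP–ENZ48 followed with 17 (22.1%, against 10.7%).

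Between VCaP–ENZ48 and VCaP parental the members as a group were below the median gene. The median relative log2 ratio was −0.35 (quartiles −0.53 and −0.15), and 64 of 76 members were below the median of all genes tested, where the share over all genes is 50% by construction. Past 1.5-fold, 14 members were lower (18.4%) and 2 were higher (2.63%), against 15% and 17.5% of all 7729 genes tested. On this scale the count of lower members was near the background and the count of higher members was under it, whereas on other scales the lower members also exceeded it. The large subunit had a median of −0.46 and the small subunit −0.27. Of the 14 lower members 13 were among the 48 large subunit genes (27.1%) and 1 among the 28 of the small subunit (3.57%). With no centring, 50 members were lower by TMM scaling (65.8%, against 32.4% of all genes), 44 by median-of-ratios scaling (57.9%, against 28.9%) and 21 on the CPM scale (27.6%, against 17.9%). The higher members were then 1 (against 10.4% of all genes), 1 (against 11.4%) and 2 (against 15.6%). The median of the members was −0.71 by TMM and −0.65 by median-of-ratios scaling, where that of all genes was −0.34 and −0.28.

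Members at the low end were mostly large subunit genes. Their VCaP parental level is also the denominator of the ratio that picked them. MRPL41, a mitochondria-specific protein of the large subunit, was at 300.9 CPM (293 to 309) in VCaP parental, 137 CPM (131 to 143) in VCaP–ENZ48 and 184 CPM (173 to 194) in LNCaP–ENZ168. VCaP parental was highest and no interval overlapped another, with a relative log2 ratio of −1.07 (−1.15 to −1.0) for VCaP–ENZ48. MRPL51, also mitochondria-specific, was at 436 CPM (427 to 446), 203 CPM (195 to 210.2) and 258 CPM (246 to 271) in the same order. Its relative log2 ratio was −1.04, and these were the 2 members lower by 2-fold. MRPL19, at a contact between the subunits, was at 123, 66.4 and 120.2 CPM, so VCaP–ENZ48 alone was low on the CPM scale. Its relative log2 ratio was −0.60 for LNCaP–ENZ168 over VCaP parental, also past 1.5-fold, and −0.81 between the VCaP libraries. MRPL11, of the stalk base where translation factors bind, was at 293, 162 and 73.0 CPM, lower in each library than in the one before, with −0.78. MRPL42 was at 147, 81.9 and 152 CPM, a ratio of −0.77 between the VCaP libraries. MRPS15, of the small subunit, was at 127, 70.7 and 162 CPM, the single small subunit gene past 1.5-fold, with −0.77.

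Both members higher by 1.5-fold in VCaP–ENZ48 were of low level. MRPS24, the counterpart of bacterial protein S3 near the mRNA entry, was at 16.7 CPM (14.9 to 18.6) in VCaP parental, 42.9 CPM (39.5 to 46.4) in VCaP–ENZ48 and 7.76 CPM (5.74 to 10.3) in LNCaP–ENZ168, from 326, 613 and 49 UMIs. The intervals were far apart, with VCaP–ENZ48 highest, and the relative log2 ratio between the VCaP libraries was 1.38 (1.23 to 1.62). Its gene body lies within the read-through gene URGCP-MRPS24 on the same strand, so the level of MRPS24 is uncertain. MRPL38 was at 8.15, 14.0 and 12.5 CPM, from 159, 200 and 79 UMIs, with a ratio of 0.78 (0.54 to 1.16). The intervals of VCaP–ENZ48 and LNCaP–ENZ168 overlapped. MRPL38 also overlaps another gene on the same strand, so its level is uncertain too. In Gencode 24 members have such an overlap, among them MRPL2, MRPL12, MRPL19, MRPL42 and MRPS28. For 8 of the 24 the other gene has counts of its own here.

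The next highest members did not pass 1.5-fold. MRPS28 was at 63.0, 79.2 and 76.5 CPM, MRPL10 at 23.9, 29.9 and 52.4 CPM, and MRPL2, which lies close to the peptidyl transferase centre, at 19.6, 23.7 and 27.1 CPM. MRPL12 was at 130.5, 157 and 75.2 CPM, a relative ratio of 0.33 (0.25 to 0.41) in VCaP–ENZ48. MRPL12 and MRPL10 together form the stalk that recruits translation factors, and both were above the median gene here while MRPL11 at the stalk base was below it. Under TMM scaling with no centring the ratios of MRPL12 and MRPL2 were −0.03 and −0.01.

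**Figure D3:**
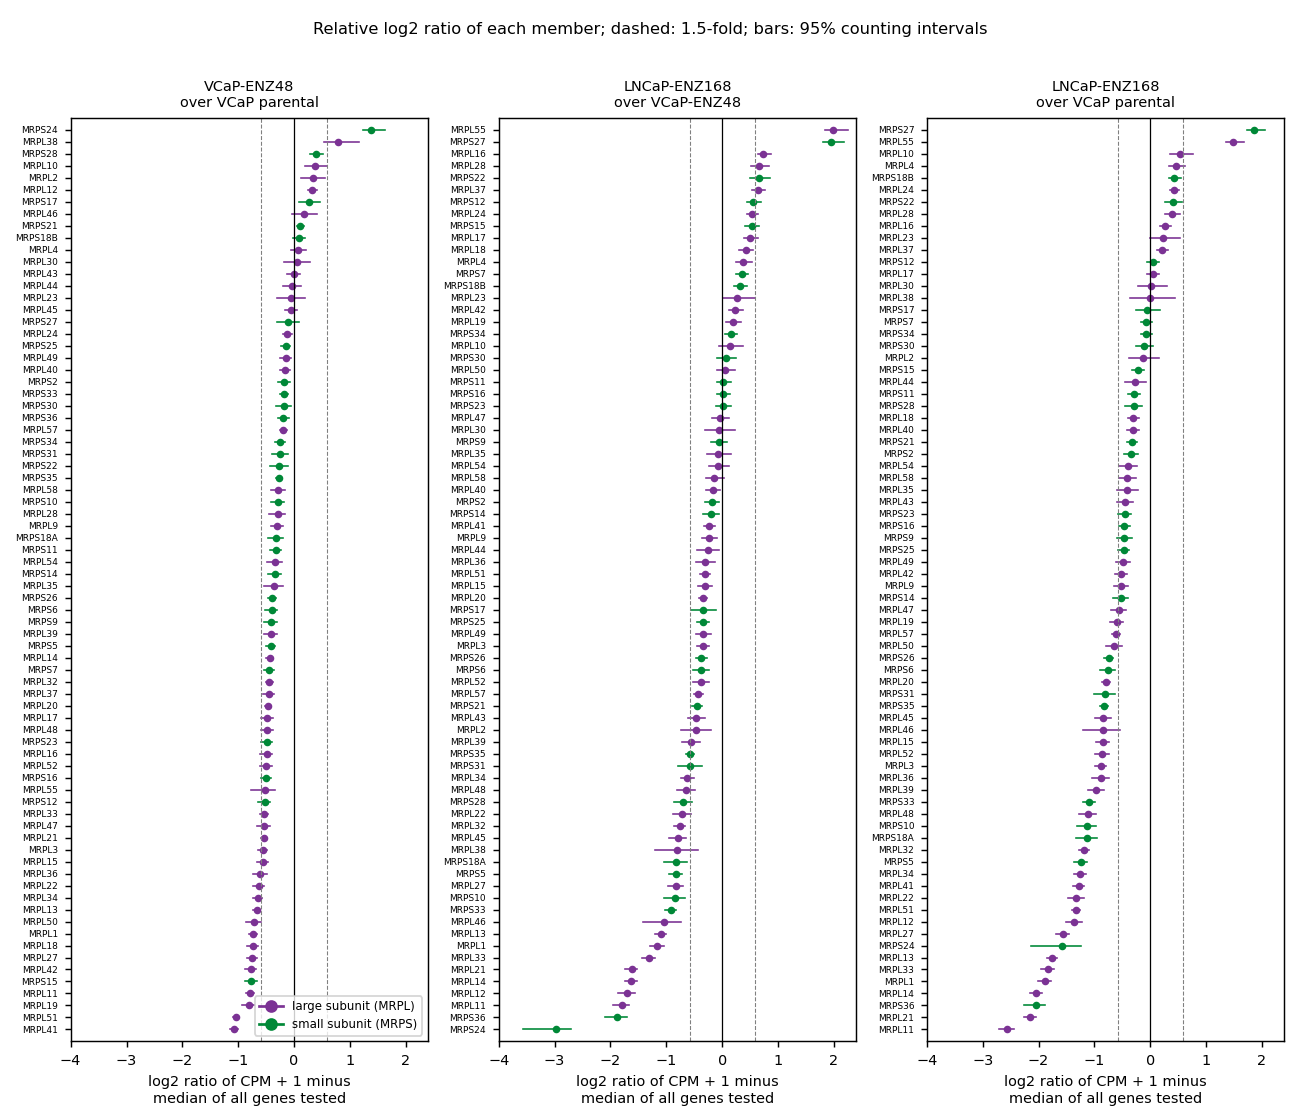
Relative log2 ratio (log2 ratio of CPM + 1 minus the median of all genes tested) of the 76 members that passed the minimum, ranked within each comparison, with 95% counting intervals; purple, large subunit; green, small subunit; dashed lines, 1.5-fold. In the left panel 64 points lie below 0, and in the other panels 52 and 62 do. The ranks at the low end in the left panel are taken by purple points but for MRPS15.

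The comparison of LNCaP–ENZ168 with VCaP–ENZ48 sets lines apart as well as times, and its direction for the members depended on the scale. On the CPM scale the median log2 ratio of the members was 0.35, against 0.65 for all genes. By 1.5-fold 28 members were higher (36.8%, against 53.1% of all genes) and 7 lower (9.21%, against 15%). Relative to the median gene it was −0.31 (quartiles −0.71 and 0.08), with 52 of 76 members below the median of all genes (50% over all genes). Past 1.5-fold, 22 members were lower (28.9%) and 6 higher (7.89%), against 28.1% and 26.8% of the 8854 genes tested, so that only the count of higher members stood away from the background. The large and small subunit medians were −0.31 and −0.27. TMM and median-of-ratios scaling with no centring each gave 10 higher (13.2%, against 30.0% and 31.4% of all genes) and 18 lower (23.7%, against 25.4% and 24.4%).

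Against VCaP parental the members of LNCaP–ENZ168 were lower relative to the median gene, while on the CPM scale their median was slightly above 0. The relative median was −0.52 (quartiles −1.10 and −0.12) and the median on the CPM scale 0.054, against 0.57 for all genes. On that scale 14 members were higher by 1.5-fold (18.4%, against 49.5% of all genes) and 16 lower (21.1%, against 16.5%). Of 76 members 62 were below the median of all genes (50% over all genes), 35 were lower by 1.5-fold (46.1%, against 30.2% of 8526 genes) and 2 were higher (2.63%, against 28.4%). The large subunit median was −0.61 and the small −0.46. Of the 35 lower members 25 were among the 48 large subunit genes tested (52.1%) and 10 among the 28 of the small subunit (35.7%), against 30.2% of all genes. These comparisons share libraries with each other and with the previous one, so that their values are not independent.

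Members with and without the YY1 letters shown above were close in VCaP and further apart between the lines. The 13 members with the letters had a median relative log2 ratio of −0.32 between the VCaP libraries, and the 54 tested members of the matched windows without them −0.40. Over VCaP–ENZ48 the medians in LNCaP–ENZ168 were −0.71 and −0.23, and over VCaP parental −0.86 and −0.47. The 27 tested members with the ETS letters and the 40 without were at −0.34 and −0.41 between the VCaP libraries, and at −0.34 and −0.24 over VCaP–ENZ48. These medians were chosen after the data were seen and carry no test.

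MRPL55 and MRPS27 were the members that were higher by 2-fold in LNCaP–ENZ168. MRPL55 was at 28.4 CPM (26.1 to 30.9) in VCaP parental, 18.5 CPM (16.4 to 20.9) in VCaP–ENZ48 and 121 CPM (112 to 129.6) in LNCaP–ENZ168, with relative log2 ratios of 1.98 over VCaP–ENZ48 and 1.47 over VCaP parental. MRPS27, a pentatricopeptide repeat protein of the small subunit, was at 26.4 CPM (24.2 to 28.8), 23.4 CPM (20.9 to 26.0) and 146 CPM (137 to 156), with 1.94 and 1.85. For both, LNCaP–ENZ168 lay far above the VCaP libraries, whose MRPS27 intervals overlapped. MRPL16 (113, 76.6 and 203 CPM), MRPL28 (57.7, 44.7 and 113 CPM), MRPS22 (43.0, 34.0 and 85.5 CPM) and MRPL37 (119.8, 83.3 and 207 CPM) made up the rest of the 6 higher over VCaP–ENZ48. In every one of these VCaP parental lay between VCaP–ENZ48, the lowest, and LNCaP–ENZ168, the highest. The genes were picked by their ratio between those 2 libraries, so only the place of VCaP parental was free. The same order held for 33 of 77 members (42.9%) and for 32.2% of the 8504 genes that averaged 10 CPM or more. MRPL28 and MRPS22 overlap PGAP6 and BPESC1 on the same strand, which leaves their levels uncertain. Over VCaP parental the highest members after MRPS27 and MRPL55 were MRPL10, MRPL4 (54.5, 54.8 and 113 CPM), MRPS18B (87.5, 88.9 and 176 CPM) and MRPL24 (149, 131 and 299 CPM), all under 1.5-fold.

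The members at the low end in LNCaP–ENZ168 ranged in VCaP parental from 16.7 CPM (MRPS24) to 416 CPM (MRPL21). The VCaP level is also the denominator of these ratios. MRPL11 had relative log2 ratios of −1.80 over VCaP–ENZ48 and −2.56 over VCaP parental. MRPL21 was at 416 CPM (407 to 425), 272 CPM (264 to 281) and 139 CPM (129.7 to 148) in VCaP parental, VCaP–ENZ48 and LNCaP–ENZ168, with ratios of −1.62 and −2.15. MRPL14, which forms a bridge to the small subunit, was at 345, 243 and 124 CPM (−1.63 and −2.05). MRPL33 (275, 181 and 114 CPM) and MRPL1 of the L1 stalk (276, 159 and 111 CPM) followed over VCaP parental, with −1.84 and −1.88. In all 5 the levels stepped down from VCaP parental through VCaP–ENZ48 to LNCaP–ENZ168 with no overlap of intervals. They were named for low ratios in LNCaP–ENZ168, so its last place was fixed by the choice. This order held for 15 of 77 members (19.5%) and for 10.7% of 8504 genes. Intervals seldom overlapped at this depth, in 12, 16 and 19 of the 77 members in the 3 comparisons, and the share over all genes was not computed. MRPL12 at 75.2 CPM and MRPS24 at 7.76 CPM were low over VCaP–ENZ48, with −1.70 and −2.98. Both were above the median gene in VCaP–ENZ48 over VCaP parental, but the VCaP–ENZ48 level enters both ratios in opposite ways. The gene body of MRPL33 overlaps BABAM2 on the same strand, so its level is uncertain.

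Other members are of interest for what their proteins do. MRPS36, now assigned to the 2-oxoglutarate dehydrogenase complex and not to the ribosome, was at 114 CPM (109 to 119) in VCaP parental, 95.1 CPM (90.1 to 100.3) in VCaP–ENZ48 and 40.2 CPM (35.4 to 45.5) in LNCaP–ENZ168. It was thus among the lowest members in LNCaP–ENZ168, with −2.05 over VCaP parental. MRPL58, a peptidyl-tRNA hydrolase that became part of the large subunit, was at 73.9, 57.8 and 82.8 CPM, and its interval in LNCaP–ENZ168 overlapped that in VCaP parental. MRPL44, whose fold is related to ribonuclease III, was at 43.5, 40.4 and 53.7 CPM, highest in LNCaP–ENZ168, with overlapping intervals in the VCaP libraries. MRPL36, a small protein with a bacterial counterpart, was at 91.0, 56.8 and 72.9 CPM, with no overlap and a relative log2 ratio of −0.60 between the VCaP libraries. In the cells of low cell cycle share its ratio was 0.49, with 12 cells on the VCaP parental side. MRPS34, needed for a stable small subunit, was at 134, 108 and 190 CPM, lowest in VCaP–ENZ48.

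MRPS18 occurs as 3 related genes, of which MRPS18A belongs to the large subunit in the structure. MRPS18A was at 62.9, 47.9 and 42.5 CPM in VCaP parental, VCaP–ENZ48 and LNCaP–ENZ168, MRPS18B at 87.5, 88.9 and 176 CPM, and MRPS18C, whose symbol falls outside the rule, at 126, 82.4 and 75.1 CPM. LNCaP–ENZ168 was highest for MRPS18B and lowest for the others. Its place under VCaP–ENZ48 was within counting error for both: the MRPS18A intervals overlapped, and the interval of the MRPS18C ratio included equal CPM. MRPS30, a large subunit protein despite its name, was at 57.6, 48.2 and 79.8 CPM. By origin, members with a bacterial counterpart had a median relative log2 ratio of −0.44 between the VCaP libraries and the mitochondria-specific ones −0.26, and this difference of −0.19 was 0.02 and −0.02 for LNCaP–ENZ168 over VCaP–ENZ48 and over VCaP parental.

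Among other members with a high mean CPM, MRPL20, MRPS35 and MRPS26 had their lowest level in VCaP–ENZ48, though the MRPS35 intervals of VCaP–ENZ48 and LNCaP–ENZ168 overlapped. MRPL20 was at 433, 298 and 372 CPM, MRPS35 at 380, 300.1 and 317 CPM and MRPS26 at 268, 195 and 237 CPM. MRPS21 differed from them, at 202, 208 and 239.7 CPM, highest in LNCaP–ENZ168. Its relative log2 ratio between the VCaP libraries was 0.11 and turned to −0.24 under TMM scaling with no centring. UMI counts at the 3' end are not divided by transcript length, since each captured molecule counts once, but capture can still differ between genes, so levels of different genes are given as measured and are not ranked as amounts of mRNA.

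Mitoribosome genes outside the rule and partner pathways were given in the same way. The 6 other ribosomal proteins of the mitochondrion (DAP3, CHCHD1, AURKAIP1, PTCD3, GADD45GIP1 and MRPS18C) had a median relative log2 ratio of −0.45 between the VCaP libraries, with 1 lower by 1.5-fold. GADD45GIP1 was at 135, 80.7 and 227 CPM and DAP3, a GTP-binding protein of the small subunit, at 106, 106 and 251 CPM, both highest in LNCaP–ENZ168. AURKAIP1 (243, 164 and 225 CPM), CHCHD1 (128, 92.4 and 133 CPM) and PTCD3 (122, 94.8 and 122 CPM), all of the small subunit, were lowest in VCaP–ENZ48. Of the nuclear-encoded respiratory chain subunits, all 76 were tested, their median was −0.50 and 27 were lower and 2 higher by 1.5-fold in VCaP–ENZ48. The 13 mitochondrially encoded mRNAs, which the mitoribosome translates, had a median of 0.12 with 1 higher and none lower. The 80 cytosolic ribosomal protein genes tested had a median of 0.48, with 27 higher and none lower, so that the protein genes of the 2 kinds of ribosome lay on opposite sides of the median gene in VCaP–ENZ48. In LNCaP–ENZ168 over VCaP–ENZ48 they lay on the same side, with the cytosolic set at −2.02, 74 of 80 lower and 2 higher, and the members at −0.31. The mitochondrially encoded mRNAs were then at −1.33 (12 of 13 lower, none higher) and the respiratory chain set at −0.81 (42 of 76 lower, 4 higher). The share of all genes called in each comparison is given above.

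Genes of mitoribosome assembly, mitochondrial transcription and mitochondrial translation did not move as a block. Of 24 tested genes of mitoribosome assembly and mitochondrial transcription, 2 were higher and 1 lower in VCaP–ENZ48, with a median of −0.04. TFAM, which packages mitochondrial DNA and starts its transcription, was at 315, 173 and 181 CPM in VCaP parental, VCaP–ENZ48 and LNCaP–ENZ168, a relative ratio of −0.80 between the VCaP libraries, and YBEY at 25.8, 45.2 and 16.2 CPM was the highest of the list with 0.85. Of 14 tested translation factors 2 were lower and none higher. SLIRP, which with LRPPRC binds mitochondrial mRNAs, was at 649, 294 and 169 CPM, with −1.07 between the VCaP libraries and −2.51 between LNCaP–ENZ168 and VCaP parental. TUFM, the mitochondrial elongation factor Tu, was at 131, 118 and 422 CPM, high in LNCaP–ENZ168 with 1.11 over VCaP parental. Of the mitochondrial aminoacyl-tRNA synthetases, 10 were tested between the VCaP libraries with 1 lower and a median of −0.22, whereas in LNCaP–ENZ168 over VCaP–ENZ48 their median was 0.57 with 6 of 14 higher, among them EARS2 (5.94 and 24.2 CPM), and 4 lower, among them CARS2 (48.6 and 18.4 CPM).

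**Figure D4:**
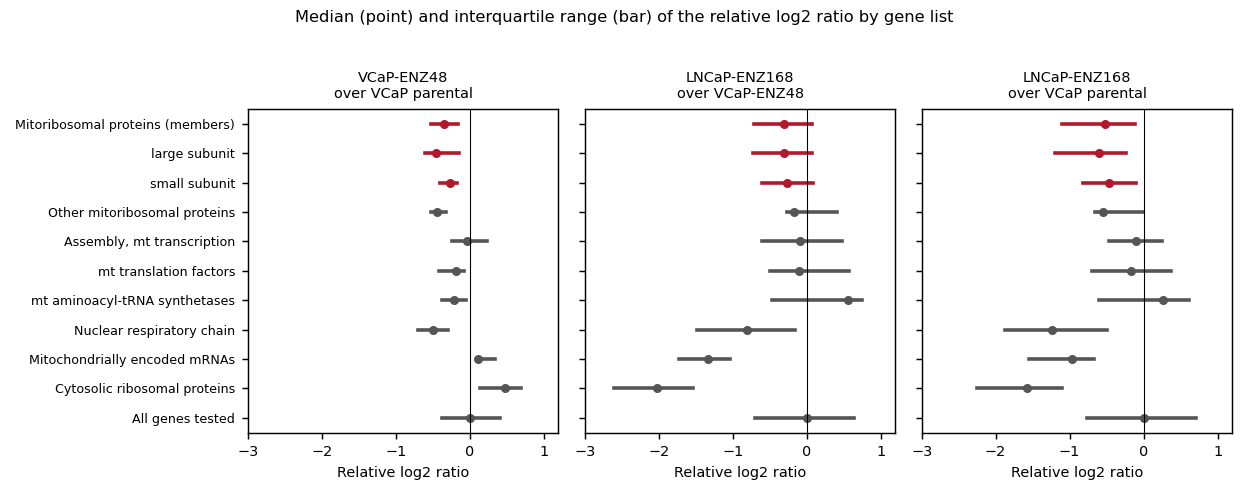
Median (point) and interquartile range (bar) of the relative log2 ratio for the members, their subunits (red), the other lists and all genes tested, in the 3 comparisons. The members sit at −0.35, −0.31 and −0.52, and the cytosolic ribosomal proteins at 0.48 in the first panel and −2.02 and −1.58 in the others.

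Several members share a start region with another gene transcribed the other way. Of the members, 18 had such a head-to-head partner with starts within 1000 bases in Gencode, in 17 pairs, since MRPL46 and MRPS11 are each other's partner. The bases between the starts of 3 pairs are shown because their genes were alike, unlike or both members (GRCh38, read on the strand of the named member, ETS letters in capitals).
MRPL47 and NDUFB5, chr3:179604650-179604689, minus strand: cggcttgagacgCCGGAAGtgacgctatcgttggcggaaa
MRPL46 and MRPS11, chr15:88467391-88467452, minus strand: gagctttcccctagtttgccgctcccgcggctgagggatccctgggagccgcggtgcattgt
MRPL57 and SKA3, chr13:21176553-21176657, plus strand: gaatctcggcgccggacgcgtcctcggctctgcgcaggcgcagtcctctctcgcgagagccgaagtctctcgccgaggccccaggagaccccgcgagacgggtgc

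Ratios of members and partners were set side by side. In 9 of the 11 pairs with both genes tested between the VCaP libraries, member and partner differed by no more than 1.5-fold, but in 7 of the 11 they lay on opposite sides of the median gene and in 4 both lay below it. How often other pairs of genes come as close was not computed, so nothing particular to the pairs is drawn from this. MRPL47 and NDUFB5, a complex I subunit, were at −0.54 and −0.58. MRPL36 and NDUFS6, also of complex I, were at −0.60 and −0.88. The exceptions were MRPL57 at −0.19 with SKA3, a kinetochore protein of dividing cells, at −2.47, and MRPL50 at −0.71 with ZNF189 at 0.76. SKA3 was at 49.3, 7.69 and 14.1 CPM in VCaP parental, VCaP–ENZ48 and LNCaP–ENZ168 while MRPL57 was at 292, 244 and 284 CPM. In LNCaP–ENZ168 over VCaP–ENZ48, 6 of 12 pairs differed by no more than 1.5-fold and 4 lay on opposite sides. MRPL46 and MRPS11, separated by 62 bases, were at −1.05 and 0.02, and MRPL49 and FAU, a gene for a cytosolic ribosomal protein, at −0.35 and −2.65. Pairs were chosen by position after the members' values had been seen.

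**Figure D5:**
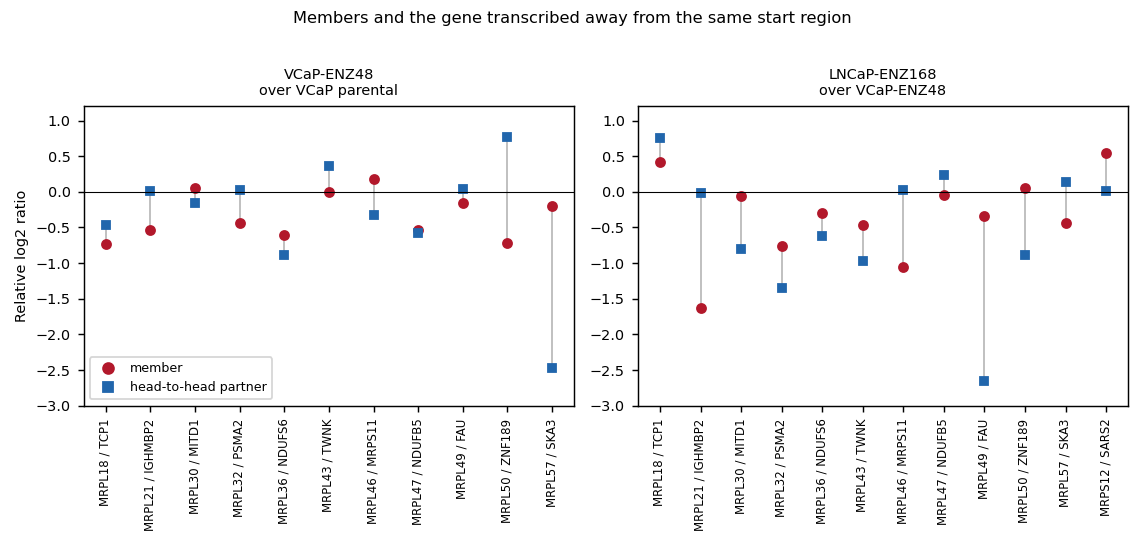
Relative log2 ratio of each member (circles) and of the gene that begins at the same start region and is transcribed the other way (squares), for the 11 pairs tested between the VCaP libraries (left) and the 12 tested between LNCaP–ENZ168 and VCaP–ENZ48 (right). The longest lines belong to MRPL57 with SKA3 on the left (−0.19 and −2.47) and MRPL49 with FAU on the right (−0.35 and −2.65).

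Between lines, the members' ratios went in part with those of the genes around them. How far other genes go with their neighbours was not computed, so nothing particular to the members is drawn from this. The median relative log2 ratio of the other genes within 2 Mb correlated with that of the member across 75 members with at least 5 such genes, with Pearson's r of 0.51 and Spearman's rho of 0.53 in LNCaP–ENZ168 over VCaP–ENZ48, and 0.45 and 0.32 over VCaP parental. Between the VCaP libraries, r was −0.05 and rho 0.00 across 74 members. Members on a chromosome can share neighbours, and the points come from the same libraries, so these values are a description. Around MRPL55, 19 neighbours had a median of 1.15 over VCaP–ENZ48, and around MRPS27, 10 neighbours had 1.0, beside 1.98 and 1.94 for the members themselves. Around MRPL11 and MRPL21, both on chromosome 11, 69 and 28 neighbours had medians of −1.22 and −0.84. MRPS36 on chromosome 5 went apart from its 13 neighbours, whose median was 0.12, as did MRPS24, with −0.43 over 22 neighbours. MRPL12 was at −1.70 where 46 neighbours had 0.07, and MRPL49 on chromosome 11 at −0.35 where 74 neighbours had −1.48. Gene copy number was not measured in these libraries and its part was not tested.

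Within each library the members' summed share was higher in cells with many cell cycle transcripts than in cells with few, by most in LNCaP–ENZ168. Per 1000000 UMIs of nuclear genes, the highest of the 3 equal groups of cells by S and G2M share exceeded the lowest by 3.64% in VCaP parental, 6.82% in VCaP–ENZ48 and 17.8% in LNCaP–ENZ168. In LNCaP–ENZ168 this was 11385 (11236 to 11536) against 9664 (9527 to 9803). Gene by gene, the median relative log2 ratio of the highest over the lowest group was 0.08, −0.02 and 0.25 in the same order, and 45 of 75, 35 of 76 and 62 of 75 members tested were above the median gene of that contrast. The lower summed level of VCaP–ENZ48 was present in every group of cells: its highest value, 8442 in the group with most cell cycle transcripts, was under the lowest of VCaP parental, 10868. Between cells with the most and the fewest UMIs the sums differed by −1.03% in VCaP parental, 14.1% in VCaP–ENZ48 and 5.12% in LNCaP–ENZ168, and between cells with the highest and lowest mitochondrially encoded share by −5.81%, −5.22% and −2.75%.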

How the data were processed

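The 3 libraries, 1 per group, were made by Drop-seq. The authors aligned reads to GRCh38 with STAR and made digital expression tables with the Drop-seq tools and Picard. The authors expected 1000 cells per library, the number of barcodes in each file. The tables they deposited hold UMI counts, not normalized, for each gene and barcode. Cell filters for these libraries were not given in the sources used here. Barcodes were kept from 300 genes and 500 UMIs upward if mitochondrial UMIs did not exceed 25%, doublets were not removed, and UMIs were summed over cells and scaled to 1000000 (CPM). A gene with no row in a file was counted as 0. Ratios are log2 of CPM + 1 minus the median of genes whose mean reached 10 CPM. Sums carry exact Poisson, shares Clopper-Pearson and ratios exact conditional intervals. The ratio intervals come from the counts without the added 1, shifted by the same median, so in genes of low level they are not centred on the printed ratio. Because each group is 1 library, no test was made. The ratio and interval code was tested on simulated data.

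Members, lists and alternatives were chosen with earlier results of these data known. Named members were the 6 highest and 6 lowest of each comparison, the 3 most abundant of each subunit, those under 10 CPM in every library and 10 chosen genes, and for other lists the highest 2 and lowest 2. Other named members, head-to-head partners and the printed sequences were chosen after values were seen. S and G2M genes were those of Seurat without genes that match the rule. Subunit and origin in the human structure were assigned by hand from general knowledge. Positions and overlaps come from Gencode 44, a later version than the authors used, and start windows from RefSeq. TMM factors were from edgeR 4.0.16, and other steps used Python 3.11.15, numpy 2.4.6, pandas 2.3.3 and scipy 1.17.1.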

Additional observations from a re-analysis of the deposited data

Results flagged for a closer look

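Rows whose symbols name pseudogenes or antisense and divergent transcripts of the members stood outside every comparison above and still held UMIs above the limit that a count of 0 allows. Pseudogene rows summed to 22.6 CPM in VCaP parental, 39.9 CPM in VCaP–ENZ48 and 10.8 CPM in LNCaP–ENZ168, led in each by MRPL45P2 with 7.07, 11.7 and 4.75 CPM. Antisense and divergent rows summed to 31.5, 40.1 and 48.3 CPM, most of it from MRPL20-AS1 with 30.8, 37.7 and 45.5 CPM. Both sums were small beside those of the members. Reads from near-identical copies can be split between a member and its pseudogene, and this was not tested.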

How the results depend on the processing

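No paired analysis was possible because a group is a single library. Leaving out a library was not run for the same reason. Where the values below moved, the cause was not tested.

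Between VCaP–ENZ48 and VCaP parental the median relative log2 ratio of members (−0.35) was −0.71 with TMM and −0.65 with median-of-ratios scaling, −0.58 and −0.26 with minimum means of 1 and 50 CPM, and −0.26 in cells of low S and G2M share. The count of higher members (2) was 5 in those cells, 1 with only barcodes ending in a base, with TMM, with median-of-ratios and at 2-fold, and 0 at a minimum of 50 CPM and without members that overlap a gene on the same strand. The count of lower members (14) was 24 with cells weighted equally, 50 with TMM, 44 with median-of-ratios, 38 and 6 at minimums of 1 and 50 CPM, and 2 at 2-fold.

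For LNCaP–ENZ168 over VCaP–ENZ48 the median (−0.31) reversed to 0.35 without centring. The count of higher members (6) was then 28, and it was 10 with TMM, with median-of-ratios and at minimums of 1 and 50 CPM, 3 without overlapping members and 2 at 2-fold. The count of lower members (22) was 7 without centring and 10 at 2-fold. Over VCaP parental the median (−0.52) reversed to 0.054 without centring and was −0.27 at a minimum of 50 CPM. There the count of higher members (2) was 14 without centring, 7 at 50 CPM, 6 in cells of low S and G2M share and 1 without overlapping members, and that of lower members (35) was 16, 22 at 50 CPM and 20 at 2-fold.

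Large minus small subunit medians stayed negative in all alternatives, between −0.23 and −0.06 in VCaP. The summed level moved in VCaP parental to 10427 CPM with barcodes ending in a base and 10078 CPM in cells of low S and G2M share. In VCaP–ENZ48 it moved to 7472 CPM without a filter, 7636 CPM at 15% mitochondrial UMIs, 7470.2 CPM without barcodes above 3 times the median depth, 7763 CPM with barcodes ending in a base, 7413 CPM in cells of low share and 7196 CPM with cells weighted equally. In LNCaP–ENZ168 it moved to 9230.3 CPM without a filter, 9467 CPM at 15%, 8827 CPM in cells of low share and 9237 CPM with cells weighted equally. Without mitochondrially encoded and cytosolic ribosomal protein genes in the total, the sums were 14348, 11101 and 11578 CPM. The large subunit share was 64.9%, 64.0% and 60.7% in cells of low share, 70.0%, 66.4% and 63.0% by the structure and 69.3%, 65.5% and 62.0% without the most abundant genes. Of the named members' 1080 values under alternatives, 2 reversed a ratio past 1.5-fold, both in cells of low share, where VCaP parental has 12 cells: MRPL36 at 0.49 between the VCaP libraries and MRPL19 at 0.28 over VCaP parental.

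The depth of 6313283 UMIs in LNCaP–ENZ168 limits the rarest members there, with 12 UMIs for MRPL53 and 49 for MRPS24.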
